A study of Mus musculus with 9 samples.

Results

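The genes of DNA replication and mitosis were followed in 3T3-L1 cells, a preadipocyte line of mouse fibroblast origin that stores fat after hormonal induction. Expression was read for 48 named genes, 20 of DNA replication (the S phase genes) and 28 of mitosis, out of 19094 genes that were listed in at least 1 sample. They were found by their trimmed gene symbols, all 48 were present, and all 48 passed the filter on low counts that left 13154 genes for testing. Each of the 3 stages had 3 replicates of RNA-seq. At day 0 the cells were preadipocytes, grown to near confluence and not yet induced. Day 4 cells had received dexamethasone, IBMX and insulin for 2 days and then insulin alone for 2 days, and day 8 cells had been kept in insulin for 4 more days. All 3 groups were the same line, for which no genetic change is named, and no uninduced cells of day 4 or day 8 were compared, so that time in culture and the inducing agents cannot be told apart. Cells were pooled within a stage before RNA extraction, and nothing states that replicates came from separate cultures, so that p-values measure the spread between these samples, which may be technical. The depth was 18216114 to 20452144 expected counts per sample.

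A dividing cell first licenses and fires its replication origins, copies its DNA in S phase and then condenses, aligns and separates the chromosomes in mitosis. Genes of replication are known to be driven by E2F transcription factors once the retinoblastoma protein releases them, and many genes of mitosis are known to be switched on later, by the MuvB complex with the B-Myb and FoxM1 factors acting through a promoter element called the CHR. Confluent 3T3-L1 preadipocytes are known to arrest, to divide again for a short time after induction and then to leave the cell cycle for good as they become adipocytes.

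The stage labels were checked against marker genes. The 8 adipocyte markers together reached a summed level of 148.9, 143.8 and 143.9 FPKM (fragments counted per length of gene and per depth of the sample, so that genes can be compared) at day 0, 5737, 6776 and 8161 at day 4, and 8269, 9013 and 8877 at day 8. The sample labels call all 9 samples adipocytes, yet *Adipoq*, the gene of the hormone adiponectin, was at 0.5 ± 0.19 FPKM (SD, n = 3) at day 0 against 819.8 ± 59.6 at day 8. Of the 7 markers of fibroblasts and preadipocytes, 6 were at 1 FPKM or more in every sample, and *Col1a2*, a collagen chain, was the most abundant of them at all 3 stages together. The 6 macrophage markers summed to between 1.95 and 4.04 FPKM and the 4 endothelial markers to between 0.18 and 0.50. The defining macrophage genes *Adgre1*, *Ptprc* and *Itgam* averaged no more than 0.017 FPKM at any stage.

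One library stood apart in these genes. Day 0 replicate 2 lay above both other day 0 replicates in 48 of 48 members, and its level was a median 1.34 times the mean of the other two, 1.28 times for the replication genes and 1.39 times for the mitotic genes. Over all tested genes the same ratio was 0.998. Further genes that were not among the 48 showed it as well, with a median of 1.33 over 73 other mitosis genes and 1.23 over 48 other replication genes. This sample also had the lowest depth, and its adipocyte markers summed to 143.8 FPKM, as in replicate 3. What set it apart was not tested, and the main counts of the early and whole comparisons are given below with and without it.

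**Figure D1:**
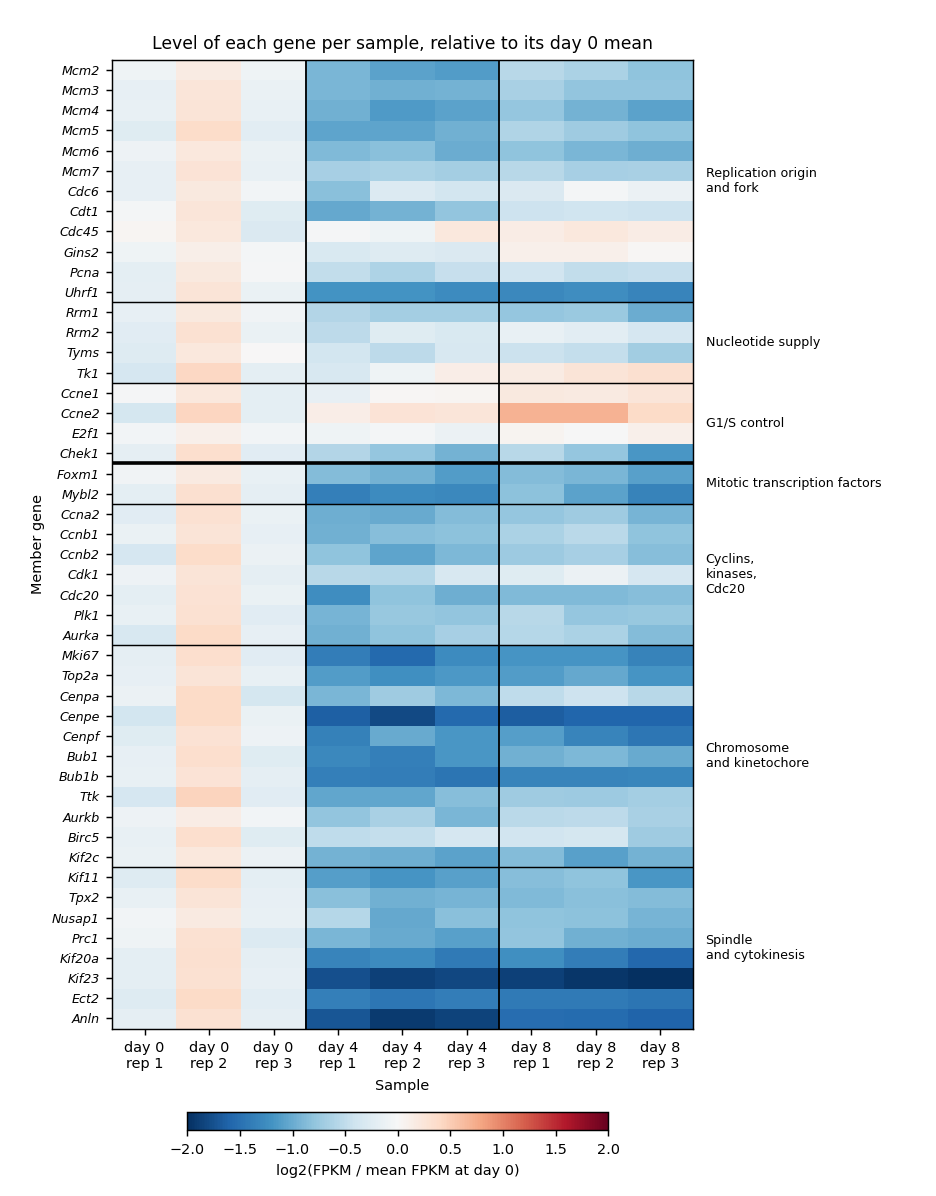
Level of each of the 48 genes (rows, by role) in each of the 9 samples (columns), as log2 of FPKM over the gene's mean FPKM at day 0. The replication genes lie above the thick line and the mitotic genes below it; blue fields are below the day 0 mean, and day 0 replicate 2 is pale red in all 48 rows.

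Both classes were lower at day 4 than at day 0, and the mitotic genes more so. A gene is said here to have risen or fallen where its adjusted p (edgeR's quasi-likelihood test, Benjamini-Hochberg over all tested genes) was under 0.05, and to be called where its fold change was also above 2. The changes given for single genes are log2 fold changes. By the first criterion 15 of 20 replication genes and 28 of 28 mitotic genes fell, against 33.7% of all tested genes, and none of the 48 rose, against 35.5% of all tested genes. By the second, 1 replication gene and 12 mitotic genes were called lower, against 7.98% of all tested genes, and 0 were called higher, against 9.77%. That 0 did not change at an unadjusted p under 0.05 or with DESeq2, edgeR's exact test or limma, each of which called 0 of the 48 higher. The median log2 fold change was -0.52 for the replication genes, -0.92 for the mitotic genes and 0.02 for all tested genes. Without day 0 replicate 2, 1 replication gene and 9 mitotic genes were called lower, 12 and 27 fell, 1 replication gene (*Ccne2*) rose, and the medians were -0.40 and -0.79. The 1 replication gene called lower, *Uhrf1*, was joined by *Mcm4* and *Mcm5* without day 0 replicate 1, by *Mcm2* and *Mcm4* without day 4 replicate 1, and by *Mcm2*, *Mcm4* and *Mcm5* without day 0 replicate 3, giving counts of 3, 3 and 4. Over the same interval all 8 adipocyte markers rose and 6 of 7 fibroblast and preadipocyte markers fell, and the part of the changing cell make-up in these falls was not tested. Since these are bulk samples, fewer cycling cells and less of each RNA per cycling cell cannot be told apart.

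**Figure D2:**
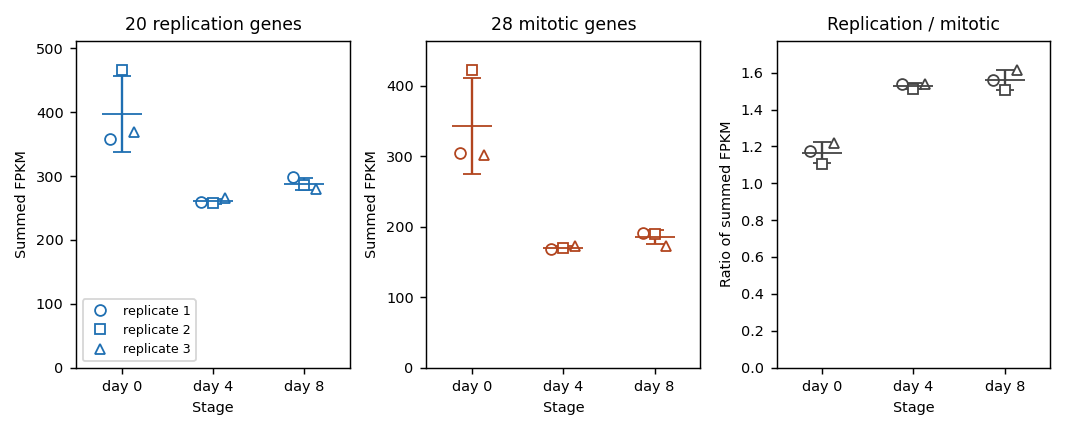
Summed FPKM of the 20 replication genes (left), of the 28 mitotic genes (middle) and their ratio (right) at each stage; open symbols are single samples, horizontal bars are means and error bars are SD (n = 3). At day 0 replicate 2 lies above the other two in both sums, and all ratios at day 4 and day 8 are above all ratios at day 0.

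Per sample, the summed level of the 20 replication genes was 358, 466 and 369 FPKM at day 0, 259, 257 and 265 at day 4, and 298, 287 and 279 at day 8. The 28 mitotic genes summed to 304.5, 422 and 302 FPKM at day 0, 168, 170.3 and 172 at day 4, and 191, 190.04 and 173 at day 8. Neither sum overlapped between day 0 and a later stage, and for both sums every day 8 sample was above every day 4 sample. The mean at day 4 was 65.5% of that at day 0 for replication and 49.7% for mitosis, and at day 8 it was 72.4% and 53.9%. Without day 0 replicate 2 the percentages at day 4 were 71.6% and 56.1%, and at day 8 they were 79.2% and 60.9%. The ratio of the replication sum to the mitotic sum was 1.17 ± 0.06, 1.53 ± 0.02 and 1.56 ± 0.05 at day 0, 4 and 8 (SD, n = 3). Its value rests on the unit, since with sums of CPM, which are not scaled to length, it was 0.873, 1.17 and 1.19 at the 3 stages. In both units the ratio at day 0 was the lowest of the 3 stages. Both classes together made up 0.219% ± 0.038, 0.117% ± 0.001 and 0.127% ± 0.006 of all expected counts at day 0, 4 and 8 (SD, n = 3).

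Of the 15 replication genes that fell, 11 were among the 12 genes of the origin and the fork. The group had a median log2 fold change of -0.84. *Mcm2* to *Mcm7* encode the 6 subunits of the helicase that is loaded at origins and unwinds the DNA, and all 6 fell, with log2 fold changes between -0.98 for *Mcm4* and -0.58 for *Mcm7*. *Mcm5* had FPKM values of 13.9, 21.1 and 14.3 at day 0, 7.87, 7.92 and 8.4 at day 4, and 10.8, 10.1 and 9.42 at day 8. No day 4 or day 8 value reached the day 0 values, and the log2 fold change to day 4 was -0.96 (SE 0.12, adjusted p = 2.5e-06). *Mcm6* stood at 24.8, 30.8 and 24.2 FPKM at day 0, 14.4, 14.9 and 13.4 at day 4, and 15.2, 14.1 and 13.6 at day 8, with an early log2 fold change of -0.83 (SE 0.08, adjusted p = 8.6e-08). Its day 4 and day 8 values overlapped. About 23.3% of the 50-base stretches of *Mcm7* transcripts also occur in another gene, so that its count is uncertain.

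The factors that load and activate the helicase varied in their values. *Cdt1*, the licensing factor that brings the helicase to the origin, had FPKM values of 16.9, 20.4 and 14.7 at day 0, 8.54, 9.04 and 10.1 at day 4, and 12.98, 13.1 and 13.03 at day 8. The 3 stages did not overlap, with the lowest values at day 4, and the early log2 fold change was -0.84 (SE 0.10, adjusted p = 1e-06). *Cdc6*, its partner in loading, was scarce, with mean levels of 1.51 ± 0.2, 1.09 ± 0.21 and 1.37 ± 0.12 FPKM at day 0, 4 and 8 (SD, n = 3), and its early fall of -0.40 (SE 0.15, adjusted p = 0.027) was lost without day 0 replicate 2 (adjusted p = 0.11). *Cdc45* and *Gins2* belong to the complex that activates the helicase. The mean level of *Cdc45* was 7.41 ± 1.24 FPKM at day 0 and 7.62 ± 0.87 at day 4 (SD, n = 3), and its early log2 fold change was 0.08 (SE 0.12, adjusted p = 0.54). The early fall of *Gins2* was small, -0.21 (SE 0.08, adjusted p = 0.034), and was lost without day 0 replicate 2 (adjusted p = 0.14), and 65.4% of its 50-base stretches occur in another gene, *Gse1*, so that its count is uncertain.

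*Pcna*, the sliding clamp of the fork and the most abundant of the 48 genes, stood at 69.3, 90.8 and 78.5 FPKM at day 0, 56.5, 51.9 and 57.7 at day 4, and 60.97, 56.7 and 58.1 at day 8. Every later sample was below every day 0 sample, and the early log2 fold change was -0.46 (SE 0.07, adjusted p = 4.4e-05). *Uhrf1*, which brings the maintenance DNA methyltransferase to newly copied DNA, was the single replication gene called in the early phase. Its FPKM values were 14.9, 20.2 and 15.4 at day 0, 7.35, 7.39 and 7.04 at day 4, and 6.88, 7.1 and 6.76 at day 8, and the early log2 fold change was -1.15 (SE 0.09, adjusted p = 1.1e-08). The log2 fold change from day 4 to day 8 was -0.03 (SE 0.10, adjusted p = 0.83), which did not pass the test.

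The promoters of the replication genes were read for E2F elements, because E2F factors are known to drive this class. Windows from 250 bases before to 50 after the start of a transcript came from RefSeq (GRCm38.p6), and 40 of the 48 members had at least 1. No window was at hand for *Mcm4*, *Gins2*, *Ccne2*, *Foxm1*, *Ccna2*, *Aurkb*, *Tpx2* and *Kif20a*. The letters TTTGGCGC, TTTCCCGC or TTTCGCGC, on either strand, were in 7 of 19 windows of replication genes (36.8%), in 1 of 25 windows of mitotic genes (4%) and in 1.84% of all 32851 windows. Shown here, as examples chosen for holding the element, are 100 bases before the start of the 3 replication genes with the largest early falls among those whose match lies before the start, read 5′ to 3′ on the strand of the gene, with the E2F letters in capitals.
*Uhrf1* (chr17:56304082-56304181, + strand, within an intron of *Uhrf1* that follows another of its starts): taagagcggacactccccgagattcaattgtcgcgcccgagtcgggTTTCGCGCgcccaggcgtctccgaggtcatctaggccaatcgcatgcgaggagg
*Mcm5* (chr8:75109314-75109413, + strand, intergenic): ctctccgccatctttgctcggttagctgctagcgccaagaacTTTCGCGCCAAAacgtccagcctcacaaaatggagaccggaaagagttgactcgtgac
*Mcm6* (chr1:128359706-128359805, - strand, intergenic): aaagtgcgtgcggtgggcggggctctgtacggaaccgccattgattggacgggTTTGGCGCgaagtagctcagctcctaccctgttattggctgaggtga
The first capital lies 185 bases before the start in *Uhrf1*, 153 in *Mcm5* and 47 in *Mcm6*, and in *Mcm5* the capitals span an overlapping pair of matches, one on each strand. The starts are those of RefSeq, and the nearest start in GENCODE vM21 lies at the same base for *Uhrf1*, 60 bases further downstream for *Mcm5* and 41 for *Mcm6*. *Mcm3*, *Cdt1*, *Mcm7* and *Cdc6* held these letters too. The other 10 genes with a window did not hold them, among them *Mcm2*, *Pcna*, *Rrm1*, *Rrm2*, *Tyms* and *Chek1*, which fell, and *E2f1*, *Tk1*, *Ccne1* and *Cdc45*, which did not pass the early test. For some of these the window may miss the promoter. The nearest GENCODE start of *E2f1* lies upstream of its window, at -294 bases from the RefSeq start, so the bases before it were not read. In *Pcna* and *Tk1* the nearest GENCODE start lies at -134 and -78 bases. A match is a description and not a site of binding, and its part in the changes was not tested.

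The genes of nucleotide supply changed less, with a median log2 fold change of -0.31 over 4 genes, which was -0.17 without day 0 replicate 2. *Rrm1* and *Rrm2* encode the subunits of ribonucleotide reductase, which makes the deoxynucleotides. *Rrm1* had FPKM values of 23.7, 30.5 and 25.4 at day 0, 17.6, 16.5 and 16.5 at day 4, and 15.5, 15.9 and 13.3 at day 8, and no value of one stage overlapped with another. It was the 1 of 48 members whose samples were all lower at day 8 than at day 4, against 4228 of all 13154 tested genes. Its late log2 fold change of -0.14 (SE 0.08, adjusted p = 0.18) did not pass the test. The early change of *Rrm2* was -0.28 (SE 0.11, adjusted p = 0.034), a fall that was lost without day 0 replicate 2 (adjusted p = 0.26). *Tyms*, thymidylate synthase, fell, with an early log2 fold change of -0.33 (SE 0.10, adjusted p = 0.0066). *Tk1*, the thymidine kinase that salvages thymidine in S phase, was at 11.2, 18.8 and 12.3 FPKM at day 0, 11.2, 13.3 and 15.5 at day 4, and 15.9, 16.9 and 17.7 at day 8. Day 0 replicate 2 was the highest of all 9 and the day 0 range enclosed all later values, with an early log2 fold change of -0.0044 (SE 0.15, adjusted p = 0.98). When that sample was left out, the value for *Tk1* was 0.25 (SE 0.11, adjusted p = 0.066).

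The 4 genes grouped as G1/S control were *E2f1*, *Ccne1* and *Ccne2*, which act at entry into S phase, and *Chek1*, a checkpoint kinase. In the early phase *Chek1* fell and the others did not pass the test. *E2f1*, itself an activator of replication genes, was at 19.01, 21.1 and 18.9 FPKM at day 0, 18.5, 19.1 and 18.1 at day 4, and 20.4, 19.6 and 21.1 at day 8. Its early log2 fold change was -0.02 (SE 0.06, adjusted p = 0.81). *Ccne1* and *Ccne2* encode cyclin E, the partner of Cdk2 at the start of S phase. *Ccne1* averaged 12.99 ± 1.85 FPKM before induction and 12.7 ± 1.0 by day 4 (SD, n = 3), and its early log2 fold change was 0.04 (SE 0.09, adjusted p = 0.69). *Ccne2* was scarce, at 1.53, 2.63 and 1.7 FPKM at day 0, 2.15, 2.35 and 2.3 at day 4, and 3.17, 3.17 and 2.54 at day 8, with an early log2 fold change of 0.30 (SE 0.17, adjusted p = 0.13). That value did not pass the test, but without day 0 replicate 2 *Ccne2* rose, though by less than 2-fold, with a change of 0.55 (SE 0.14, adjusted p = 0.0024). *Chek1*, the kinase that halts the cycle when forks stall, was the one of the 4 that fell, with an early log2 fold change of -0.68 (SE 0.17, adjusted p = 0.0019).

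**Figure D3:**
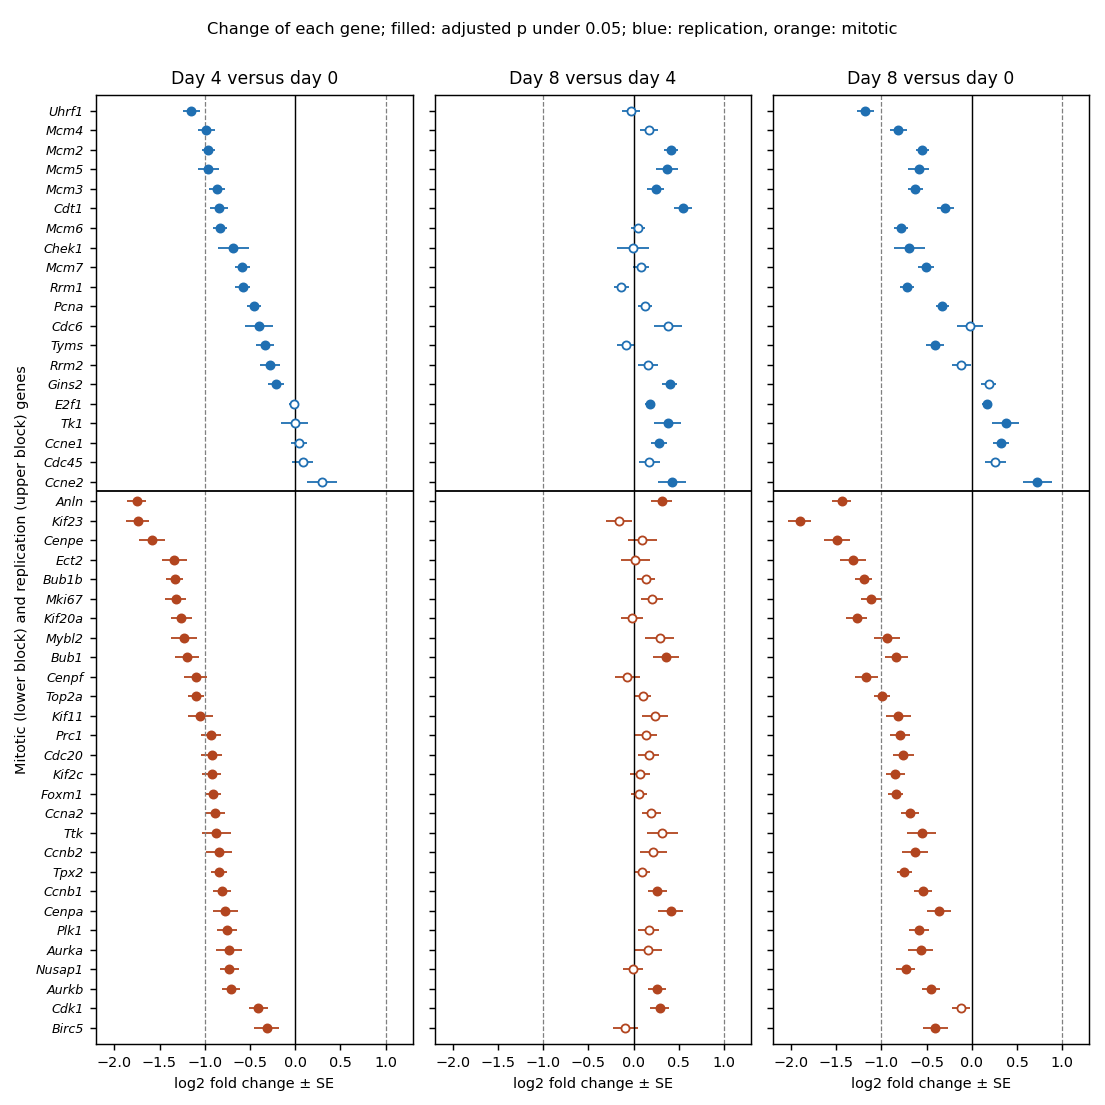
Log2 fold change with its SE for the 48 genes in the 3 comparisons, the replication genes in the upper block (blue) and the mitotic genes in the lower block (orange), each ordered by the early change; filled points have an adjusted p under 0.05 and dashed lines mark a fold change of 2. In the first panel all 28 mitotic genes and 15 of 20 replication genes are filled and left of 0, and in the second no gene reaches a dashed line.

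All 28 mitotic genes fell between day 0 and day 4, with log2 fold changes from -1.75 for *Anln* to -0.31 for *Birc5*. The genes of the spindle and of cytokinesis had a median of -1.16 over 8 genes, of which 5 were called lower, against 7.98% of all tested genes. This was the lowest median of the role groups, but without day 0 replicate 2 it was -0.95, beside -0.94 for the genes of the chromosomes and the kinetochore, with 4 genes called in each group. *Anln*, anillin of the contractile ring, had FPKM values of 14.1, 19.9 and 14.1 at day 0, 4.89, 4.27 and 4.45 at day 4, and 5.6, 5.51 and 5.28 at day 8. Each stage was apart from the others, day 4 being the lowest, and the early log2 fold change was -1.75 (SE 0.11, adjusted p = 4.4e-10). *Kif23*, a motor of the central spindle, had FPKM values of 7.82, 11.1 and 7.95 at day 0, 2.65, 2.44 and 2.54 at day 4, and 2.44, 2.32 and 1.84 at day 8, with an early log2 fold change of -1.74 (SE 0.13, adjusted p = 3.8e-09). Its lowest value was that of a day 8 sample. *Ect2*, which activates the GTPase RhoA at the cleavage furrow, stood at 3.84, 6.02 and 3.98 FPKM at day 0, 1.78, 1.7 and 1.76 at day 4, and 1.74, 1.73 and 1.68 at day 8. Its early log2 fold change was -1.34 (SE 0.14, adjusted p = 3.9e-07), and its day 4 and day 8 ranges overlapped. *Kif20a* (-1.26), a motor needed for cytokinesis, and *Kif11* (-1.05), the motor that pushes spindle poles apart, were also called. About 25.2% of the 50-base stretches of *Kif20a* occur in another gene, *Cdc23*, so that its count is uncertain. *Prc1*, which bundles the microtubules of the central spindle, *Tpx2*, which activates Aurora A on the spindle, and *Nusap1*, a microtubule-binding protein, fell with log2 fold changes of -0.93, -0.84 and -0.73.

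Of the 11 genes of the chromosomes, the kinetochore and its checkpoint, 6 were called lower, against 7.98% of all tested genes, and the median was -1.09. *Cenpe*, a kinetochore motor that aligns chromosomes, had FPKM values of 3.39, 5.69 and 3.97 at day 0, 1.4, 1.25 and 1.48 at day 4, and 1.39, 1.45 and 1.45 at day 8. Its day 4 and day 8 values overlapped and lay below all day 0 values, with an early log2 fold change of -1.59 (SE 0.14, adjusted p = 5.8e-08). *Mki67*, the gene of the proliferation marker Ki-67, was at 9.87, 14.2 and 9.56 FPKM at day 0, 4.31, 3.83 and 4.69 at day 4, and 4.93, 4.95 and 4.42 at day 8, and the early log2 fold change was -1.32 (SE 0.12, adjusted p = 3.7e-08). *Bub1b*, a checkpoint protein that restrains the anaphase-promoting complex, stood at 13.6, 18.2 and 13.3 FPKM at day 0, 5.82, 5.73 and 5.46 at day 4, and 6.01, 6.03 and 6.11 at day 8, with an early log2 fold change of -1.33 (SE 0.10, adjusted p = 3.3e-09). The day 4 samples of *Bub1b* were below all others, while those of *Mki67* overlapped with day 8. *Top2a*, the topoisomerase that untangles sister DNA, had FPKM values of 17.8, 23.8 and 17.97 at day 0, 9.2, 8.46 and 8.95 at day 4, and 9.13, 9.75 and 8.8 at day 8. Its early log2 fold change was -1.09 (SE 0.09, adjusted p = 1.3e-08). *Bub1* (-1.20), a checkpoint kinase, and *Cenpf* (-1.10), a kinetochore protein, completed the called genes. *Top2a*, *Cenpf* and *Kif11* no longer passed the fold threshold without day 0 replicate 2.

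The chromosomal passenger genes had smaller changes. *Aurkb*, the Aurora B kinase that corrects wrong attachments, had an early log2 fold change of -0.71 (SE 0.10, adjusted p = 7.7e-06). *Birc5*, survivin of the same complex, was at 14.8, 20.8 and 13.9 FPKM at day 0, 11.6, 11.9 and 13.03 at day 4, and 12.7, 12.9 and 10.1 at day 8. Its log2 fold change of -0.31 (SE 0.14, adjusted p = 0.049) was the smallest of the mitotic genes and was lost without day 0 replicate 2 (adjusted p = 0.37). *Cenpa*, the histone of the centromere, *Ttk*, the checkpoint kinase Mps1, and *Kif2c*, which depolymerises microtubules at the centromere, had log2 fold changes of -0.77, -0.87 and -0.92.

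The 7 genes of mitotic cyclins, kinases and *Cdc20* all fell by less than 2-fold, with a median log2 fold change of -0.81 over the group. *Ccnb1*, cyclin B, which drives entry into mitosis, had FPKM values of 14.4, 18.8 and 14.04 at day 0, 8.13, 8.71 and 8.9 at day 4, and 10.2, 10.8 and 9.0 at day 8. All day 4 samples were below the day 8 samples and these below the day 0 samples, with an early log2 fold change of -0.81 (SE 0.10, adjusted p = 2.3e-06). About 23.4% of its 50-base stretches occur in a pseudogene, so that its count is uncertain. *Cdk1*, the kinase that cyclin B activates, was at 10.8, 13.8 and 10.2 FPKM at day 0, 7.89, 7.8 and 9.34 at day 4, and 9.77, 10.7 and 9.16 at day 8. Its early change was smaller, -0.41 (SE 0.10, adjusted p = 0.0021). *Plk1* (-0.75) and *Aurka* (-0.73), kinases of the centrosome and spindle, lay between these. *Ccna2* (cyclin A, -0.88) and *Ccnb2* (-0.84), another cyclin B, were below *Ccnb1*, and *Cdc20* (-0.92), the activator of the anaphase-promoting complex, fell most. Among the transcription factors, *Mybl2*, which encodes B-Myb, had FPKM values of 3.82, 5.5 and 3.86 at day 0, 1.7, 1.84 and 1.8 at day 4, and 2.5, 2.09 and 1.74 at day 8. Its early log2 fold change of -1.23 (SE 0.15, adjusted p = 1.4e-06) passed both thresholds. *Foxm1*, which acts on mitotic genes late in the cycle, had an early log2 fold change of -0.90 (SE 0.08, adjusted p = 7.9e-08).

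The promoters of the mitotic genes were read for the CHR. Its letters, TTTGAA or TTCGAA on either strand, were in 20 of 25 windows of mitotic genes (80%), in 3 of 19 windows of replication genes (15.8%) and in 19.2% of all windows. The CCAAT box, letters CCAAT on either strand, was in 80% of the windows of mitotic genes, 63.2% of those of replication genes and 37.4% of all, and both elements were in 72%, 15.8% and 7.52%. Shown as examples chosen for holding the CHR are 100 bases before the start of the 3 mitotic genes with the largest early falls among those whose match lies before the start in a stretch that touches no annotated exon, all of them intergenic, with the CHR letters in capitals.
*Bub1b* (chr2:118597976-118598075, + strand): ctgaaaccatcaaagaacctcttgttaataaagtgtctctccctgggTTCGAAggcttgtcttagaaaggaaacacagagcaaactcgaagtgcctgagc
*Mki67* (chr7:135716425-135716524, - strand): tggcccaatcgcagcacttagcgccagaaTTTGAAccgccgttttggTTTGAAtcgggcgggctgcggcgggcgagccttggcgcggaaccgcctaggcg
*Top2a* (chr11:99024190-99024289, - strand): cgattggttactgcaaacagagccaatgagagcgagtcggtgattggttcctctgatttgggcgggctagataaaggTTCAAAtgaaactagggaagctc
The first capital lies 188 bases before the start in *Bub1b*, 116 in *Mki67* and 23 in *Top2a*, counted from the RefSeq starts, which are also GENCODE starts in *Bub1b* and *Top2a* and lie 18 bases upstream of one in *Mki67*. *Mki67* holds the letters at a pair of places, and in *Top2a* they are read on the opposite strand. Neither element was in the windows of *Birc5*, *Nusap1* and *Mybl2*, while *Cdk1* held the CHR, the CCAAT box and the E2F letters. The windows of *Ccnb1* and *Cenpe* held the CCAAT box alone. These matches are descriptions, and their part in the changes was not tested.

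From day 4 to day 8 no member fell further at an adjusted p under 0.05, and members of both classes rose by less than 2-fold. This comparison shares its day 4 samples with the early phase. No member was called in either direction by edgeR's quasi-likelihood test, against 4.24% of all tested genes called higher and 2.81% called lower, and DESeq2, edgeR's exact test and limma called 0 as well. At an unadjusted p under 0.05 alone, 10 replication and 6 mitotic genes were higher and 0 lower. At an adjusted p under 0.05, 9 of 20 replication genes and 6 of 28 mitotic genes rose, against 22.5% of all tested genes, and 0 fell, against 22.7%. The share of the mitotic genes that rose is thus near the background. These counts were not stable, since limma on log2(FPKM + 1) or on log2(FPKM + 0.1) gave 3 and 0. Leaving out 1 sample at a time gave 4 to 11 replication and 0 to 10 mitotic genes, with the mitotic count at 0 without day 8 replicate 1 or without day 8 replicate 2, at 1 without day 4 replicate 1, at 2 without day 4 replicate 2 or 3, at 3 without day 8 replicate 3 and at 10 without day 0 replicate 2. The replication count was 4 without day 4 replicate 1 and 5 without day 8 replicate 2 or 3. The median log2 fold change was 0.18 for replication and 0.17 for mitosis, against -0.01 for all tested genes. Marker genes moved over the same interval. Of the 7 fibroblast and preadipocyte markers 5 rose and 1 fell from day 4 to day 8, after 1 had risen and 6 had fallen to day 4, and their summed level was 4597, 4421 and 4680 FPKM at day 0, 3402, 3341 and 3058 at day 4, and 5604, 5492 and 5585 at day 8. Of the 8 adipocyte markers 7 rose from day 4 to day 8. Their part in the late changes of the 48 genes was not tested.

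The 9 replication genes that rose were *Cdt1*, *Ccne2*, *Mcm2*, *Gins2*, *Tk1*, *Mcm5*, *Ccne1*, *Mcm3* and *E2f1*. *Cdt1* rose most, with a late log2 fold change of 0.55 (SE 0.10, adjusted p = 0.00029). *Mcm2* was at 32.3, 38.3 and 32.1 FPKM at day 0, 18.3, 16.2 and 15.8 at day 4, and 23.2, 22.1 and 19.7 at day 8, and its late log2 fold change was 0.41 (SE 0.08, adjusted p = 0.00031). All its day 8 samples were above the day 4 samples and below the day 0 samples. *Mcm6* (0.05) and *Mcm7* (0.08), of the same helicase, did not pass the test. The 6 mitotic genes were *Cenpa*, *Bub1*, *Anln*, *Cdk1*, *Ccnb1* and *Aurkb*, with log2 fold changes from 0.26 for *Aurkb* to 0.41 for *Cenpa*. *Kif23* had the lowest late value of the 48, -0.16 (SE 0.15, adjusted p = 0.39), which did not pass the test.

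Over the whole process the mitotic genes remained lower and the replication genes split. This comparison shares its day 0 samples with the early phase and its day 8 samples with the late phase. At day 8, 27 of 28 mitotic genes and 12 of 20 replication genes were lower than at day 0 at an adjusted p under 0.05, against 36.2% of all tested genes. In the same comparison 4 replication genes and 0 mitotic genes were higher, against 34.8%, and no mitotic gene was higher at an unadjusted p or with DESeq2, edgeR's exact test or limma. With the fold threshold, 1 replication gene and 8 mitotic genes were called lower, against 7.70% of all tested genes, and 0 higher, against 10.3%, the last also by each of those tools. The median log2 fold change was -0.37 for replication and -0.80 for mitosis, against -0.02 for all tested genes. Without day 0 replicate 2 the counts called lower were 1 and 7, those lower at an adjusted p alone 11 and 25, and the medians -0.27 and -0.63, and *Cdt1*, *Cenpa* and *Birc5* no longer passed the test.

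The 8 mitotic genes called lower at day 8 were *Kif23* (-1.91), *Cenpe* (-1.49), *Anln* (-1.44), *Ect2* (-1.31), *Kif20a* (-1.27), *Bub1b* (-1.20), *Cenpf* (-1.17) and *Mki67* (-1.12), given as log2 fold changes. *Mki67* no longer passed the fold threshold without day 0 replicate 2. *Cdk1* was the one mitotic gene that did not pass the test, with a log2 fold change of -0.12 (SE 0.10, adjusted p = 0.31). *Uhrf1* was again the called replication gene, with a log2 fold change of -1.18 (SE 0.09, adjusted p = 8.3e-09). The genes that were higher at day 8 were *Ccne2*, *Tk1*, *Ccne1* and *E2f1*, none of them a gene of the helicase. *Ccne2* had the largest change among them, 0.72 (SE 0.16, adjusted p = 0.00079), and day 0 replicate 2 lay at 2.63 FPKM against 2.54 in the lowest day 8 sample. The log2 fold change of *Tk1* was 0.37 (SE 0.15, adjusted p = 0.033), and 0.63 without day 0 replicate 2. That of *Ccne1* was 0.32 (SE 0.09, adjusted p = 0.0037) and that of *E2f1* 0.17 (SE 0.06, adjusted p = 0.016), and in each of these the day 0 and day 8 samples overlapped. The count of 4 was 2 without day 0 replicate 1, without day 0 replicate 3 or without day 8 replicate 3, and 6 without day 0 replicate 2, with *Cdc45* and *Gins2* added. It was 1 with limma and 2 with upper-quartile factors or library size alone.

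**Figure D4:**
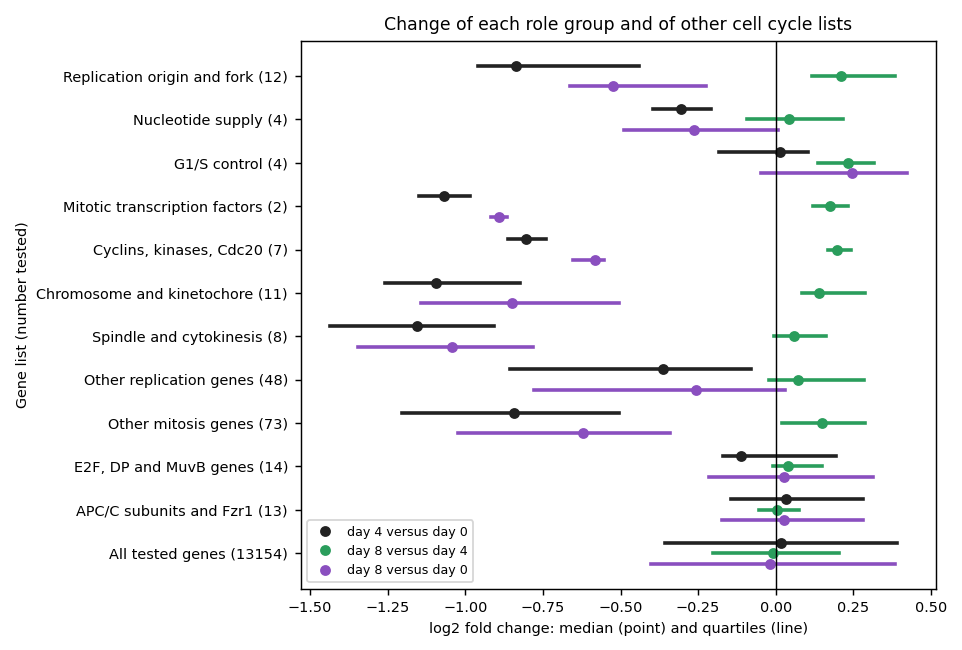
Median (point) and quartiles (line) of the log2 fold change for each role group, for other cell cycle lists and for all tested genes, with the number of genes tested in parentheses; black is day 4 versus day 0, green day 8 versus day 4 and purple day 8 versus day 0. The spindle and cytokinesis group has the lowest median of the role groups in the early and whole comparisons, by little over the next in the early one without day 0 replicate 2 (-0.95 against -0.94), and the G1/S control group lies near 0 or above it in all 3.

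Genes of the same pathways outside the 48 were read from lists chosen with earlier results of these data known. Of 73 other mitosis genes, 66 fell to day 4, against 33.7% of all tested genes, and 1 rose, against 35.5%. Of these 26 were called lower, against 7.98% of all tested genes, and 0 higher, against 9.77%, and the list had a median of -0.84, beside -0.92 for the mitotic members. Without day 0 replicate 2, 60 fell, 1 rose and 18 were called lower, with a median of -0.71. The count of 26 was 15 with limma on log2(FPKM + 1), a scale that understates the fold changes of low genes, 28 with limma on log2(FPKM + 0.1) and 14 with glmTreat, which tests for a fold change above 2. The largest changes called were those of *Gtse1* (-1.69), *Kif18a* (-1.67), a kinesin of the spindle, and *Aspm* (-1.61), a spindle pole protein. These 3 were also the largest over the whole process, at -1.58, -1.62 and -1.81, where 20 were called lower, against 7.70% of all tested genes, and 0 higher. The count of 20 was 12 without day 0 replicate 2, 11 with limma on log2(FPKM + 1), 25 with limma on log2(FPKM + 0.1) and 10 with glmTreat. At an adjusted p alone 60 of the 73 were lower and 3 higher at day 8 than at day 0, against 36.2% and 34.8% of all tested genes, and 53 and 3 without day 0 replicate 2. The 3 were 1 without day 0 replicate 1 or with library size alone and 0 with limma.

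Of 48 other replication genes, 29 fell and 4 rose to day 4, against the same 33.7% and 35.5% of all tested genes. Of these 10 were called lower, against 7.98%, and 0 higher, and the median was -0.36. Without day 0 replicate 2, 28 fell and 6 rose, 6 were called lower and the median was -0.27. The count of 10 was 5 with limma on log2(FPKM + 1), 10 with limma on log2(FPKM + 0.1) and 6 with glmTreat. The 4 that rose became 1 with limma on either scale or library size alone, and 2 with upper-quartile factors, in the fit of days 0 and 4 alone, or without day 0 replicate 1, day 0 replicate 3, day 4 replicate 3, day 8 replicate 2 or day 8 replicate 3. *Pole*, the catalytic subunit of DNA polymerase epsilon, led at -1.46, before *Dbf4* (-1.45), the activator of the kinase that fires origins, and *Ticrr* (-1.43), which acts at origin firing. Over the whole process 7 were called lower, against 7.70% of all tested genes, with *Recql4* (-1.49), *Dbf4* (-1.40) and *Pola1* (-1.32), a subunit of DNA polymerase alpha, the largest, and 1 was called higher, against 10.3%. These counts were 5 and 2 without day 0 replicate 2, with *Rpa3*, a subunit of the single-strand binding protein RPA, added among those called higher at a log2 fold change of 1.03. The 1 called higher in the fit of all 9 samples was *Asf1b* (1.02), a histone chaperone, named after its value was seen, and 0 of the list were called higher by limma on either FPKM scale or glmTreat, with upper-quartile factors or library size alone, or without day 0 replicate 1, day 0 replicate 3 or day 8 replicate 2. At an adjusted p alone 24 of the 48 were lower and 4 higher at day 8 than at day 0. These shares of 50% and 8.33% stand against 36.2% and 34.8% of all tested genes. Without day 0 replicate 2 the counts were 23 and 6. The 4 higher became 2 with limma on either scale, upper-quartile factors or library size alone. They were also 2 without day 0 replicate 1, day 8 replicate 2 or day 8 replicate 3. In the late phase 0 of either list were called in either direction, against 2.81% of all tested genes called lower and 4.24% higher. At an adjusted p under 0.05, 12 of the 48 replication genes (25%) and 10 of the 73 mitosis genes (13.7%) were higher at day 8 than at day 4, against 22.5% of all tested genes. Leaving out day 0 replicate 2, the counts were 13 (27.1%) and 21 (28.8%), against 23% of all tested genes in that fit, so that the share of the mitosis genes went from below that of all tested genes to above it. The 12 replication genes became 5 with limma, 6 with library size alone and 5 to 7 without any 1 of day 4 replicate 1, day 4 replicate 2 and the 3 day 8 samples. The 10 mitosis genes became 8 with limma, 16 with no filter and 20 in the fit of days 4 and 8 alone. Counts of 0 called in these lists were also 0 at an unadjusted p with the same fold threshold and with DESeq2, edgeR's exact test and limma.

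The lists of regulators known for the 2 classes had medians nearer to 0 than the classes. Of 14 further E2F, DP and MuvB genes, 4 fell and 3 rose to day 4, with a median log2 fold change of -0.11. These shares of 28.6% and 21.4% lie below the 33.7% and 35.5% of all tested genes in that fit. The share that fell was not stable. The 4 became 7 of the 14 with limma on either scale or library size alone, and 6 with upper-quartile factors or without day 4 replicate 2. Of the 14, 2 were called lower and 0 higher, against 7.98% and 9.77% of all tested genes, and the 0 was the same at an unadjusted p with the fold threshold and with DESeq2, edgeR's exact test and limma. Leaving out day 0 replicate 2, 4 fell and 2 rose, *E2f7* alone was called lower and the median was -0.04. The 2 called in the fit of all 9 samples were *E2f7* and *E2f8*, the atypical E2F factors that repress E2F targets. *E2f7* had FPKM values of 1.73, 3.08 and 1.95 at day 0, 0.56, 0.65 and 0.45 at day 4, and 0.89, 0.86 and 0.68 at day 8, and its early log2 fold change was -1.95 (SE 0.20, adjusted p = 3.2e-07), larger in size than that of any of the 48 members. *E2f8* had an early log2 fold change of -1.002 (SE 0.14, adjusted p = 7.8e-06), at the edge of the fold threshold, and 1 of the 14 rather than 2 was called with limma on log2(FPKM + 1), glmTreat, either other filter or the replicate block, or without day 4 replicate 1 or 3. Over the whole process 5 of the 14 were lower and 5 higher at an adjusted p alone. These shares of 35.7% each are near the 36.2% and 34.8% of all tested genes. Without day 0 replicate 2 the counts were 5 and 4. The 5 higher became 2 with limma on either scale, library size alone or without day 0 replicate 1, and 3 without day 8 replicate 1 or 2. *E2f7* was the 1 called lower with and without day 0 replicate 2, against 7.70% of all tested genes, with a log2 fold change of -1.36. The count of 1 was 0 with limma on log2(FPKM + 1) or glmTreat, and 2 with library size alone or without day 0 replicate 3. *E2f4*, which joins repressive complexes in resting cells, averaged 42.3 ± 4.35 FPKM before induction and 36.7 ± 2.25 by day 4 (SD, n = 3), and its early log2 fold change of -0.14 (SE 0.07, adjusted p = 0.078) did not pass the test. Of 13 subunits and activators of the anaphase-promoting complex, 0 were called in any comparison, by any of the tools or at an unadjusted p with the fold threshold. The shares of all tested genes called lower and higher were 7.98% and 9.77% in the early phase, 2.81% and 4.24% in the late phase, and 7.70% and 10.3% over the whole process, so that few calls would be at the background in a list of 13. At an adjusted p alone, 4 fell (30.8%) and 5 rose (38.5%) to day 4, with and without day 0 replicate 2, shares near the 33.7% and 35.5% of all tested genes, and the median was 0.03. Over the whole process 5 were lower and 5 higher (38.5% each), near the 36.2% and 34.8% of all tested genes. Without day 0 replicate 2 the counts were 4 and 5. The 5 lower became 3 without day 8 replicate 3, and the 5 higher became 3 without day 8 replicate 1, with limma on either scale or with library size alone.

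The genes most like each class were found by the Pearson correlation of log2 CPM over the 9 samples with the mean standardized profile of the class, leaving out genes whose mean log2 CPM was under 1. For the mitotic genes they were *Siah1b*, *Ckap2l*, *Ncapg*, *Melk* and *Hmgb2*, with r from 0.992 to 0.997. For the replication genes they were *Usp1*, *Tcf19*, *Ube2c*, *Sass6* and *Incenp*, with r from 0.971 to 0.978. All points share the same 9 libraries, and the profiles include the high day 0 replicate 2, so that these values are a description. *Ckap2l* averaged 11.9 ± 2.4, 4.89 ± 0.14 and 5.71 ± 0.5 FPKM at day 0, 4 and 8 (SD, n = 3). The means of *Usp1* were 13.7 ± 1.9, 9.89 ± 0.53 and 11.1 ± 0.3 FPKM at the same stages.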

How the data were processed

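RNA-seq of 3T3-L1 cells was used, with 3 replicates at each of day 0, 4 and 8, grouped by the sample titles. The authors filtered the reads, mapped them with HISAT/Bowtie2 and quantified genes with RSEM (the submitters' processing notes name Bowtie2 and CASAVA). The genome build is not given in the sources used here. The protocol in the sample labels describes dissected tissue and a library kit of another platform than the study's methods, so the platform is uncertain. The authors deposited RSEM's expected counts, not normalized, of which 29.8% are not whole, and FPKM values scaled to gene length and depth. Each deposited table lists only genes with an FPKM above 0, and an unlisted gene was taken as 0.

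Expected counts were rounded and analysed with edgeR 4.0.16 in R 4.3.3 (filterByExpr by day, TMM factors, quasi-likelihood fit of all 9 samples, 1 coefficient per day, no covariate). The SE of a change is the log2 value divided by the root of F. P-values were adjusted over all 13154 tested genes, and a call needed an adjusted p under 0.05 together with a 2-fold change. Depth was 18216114 to 20452144 expected counts per sample, so 3 counts correspond to 0.147 to 0.165 CPM. Log2 CPM used a prior count of 2. Replicates differed by more than sampling noise, and none were merged. The tests were tried on simulated data. Alternatives were RLE and upper-quartile factors, library size alone, DESeq2 1.42.0, edgeR's exact test and glmTreat, limma 3.58.1 on log2(FPKM + 1) and log2(FPKM + 0.1), no filter or at least 10 counts in every sample, a replicate block, the samples of 2 days alone, narrower classes, and each sample left out. The role groups were also summarised without day 0 replicate 2 and the other lists under every alternative, added after seeing the data. A member was treated as uncertain where over 20% of its 50-base stretches in GENCODE vM21 transcripts occur in other genes. The text names all 48 members, the 3 largest called genes of each other list and comparison, markers and the 5 nearest profiles of each class. *E2f4*, *Asf1b* and *Rpa3* were chosen after their values were seen. The members and lists were chosen with earlier results of these data known.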

Additional observations from a re-analysis of the deposited data

How the results depend on the processing

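Both class medians kept their direction in all 3 comparisons under every alternative run, and no member was called in the late phase except by the threshold of adjusted p alone, which calls by another rule. That threshold gave 15 replication and 28 mitotic genes lower in the early phase, 9 and 6 higher in the late phase, and 12 and 27 lower with 4 replication genes higher over the whole process. The 1 replication gene called lower early became 4 with upper-quartile factors or library size alone, 3 with limma on log2(FPKM + 0.1) and 0 with glmTreat, a stricter test of a fold change above 2. With glmTreat the 12 mitotic genes became 7, and over the whole process 1 and 8 became 0 and 5. The counts at adjusted p alone under each alternative were added after seeing the data. The late rises of 9 replication and 6 mitotic genes became 5 and 1 with library size alone, and 3 and 0 with limma on either scale. The 4 replication genes higher over the whole process became 2 with upper-quartile factors or library size alone and 1 with limma on either scale. The cause was not tested. Library size alone moved the median of all tested genes over the whole process to -0.13.

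The ratio of the replication to the mitotic sum at day 0, 4 and 8 was 0.873, 1.17 and 1.19 with TMM-scaled CPM, and 1.36, 1.93 and 2.004 with geometric means of FPKM + 0.1. Without the genes at the edge of each class it was 1.28 at day 0 and 1.59 at day 4.

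Leaving out 1 sample at a time gave 1 to 4 replication genes called lower early, 0 to 1 higher early and 2 to 6 higher over the whole process at adjusted p alone. It gave 4 to 11 replication and 0 to 10 mitotic genes higher in the late phase at adjusted p alone. The median of the mitotic genes over the whole process lay between -0.90 and -0.63, the latter without day 0 replicate 2. No strong pairing by replicate number was seen, and a weak one is not excluded. Same-numbered samples correlated between -0.035 and 0.075 in their deviations, and differently numbered samples between -0.100 and 0.063. A fit with the replicate block moved no count of the 48 members by over 1.5 times, for example 10 replication genes higher late. Signs of single members changed 38 times in 14 gene and comparison pairs, at a log2 fold change of at most 0.248 in size and adjusted p of at least 0.0655. These were not taken as reversals, a rule set after they were seen. The members with the fewest counts were *Chek1* and *Cdc6*, with 72.01 and 78 expected counts in their lowest samples and SEs of 0.17 and 0.15 in the early phase.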
